A study of Mus musculus with 9 samples.

Results

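The CCN genes encode secreted matricellular proteins, and the 5 described here are Ccn1 (older name Cyr61), Ccn2 (Ctgf), Ccn3 (Nov), Ccn4 (Wisp1) and Ccn5 (Wisp2). They were taken as the 5 probe sets that the array annotation assigns to these symbols, among 20239 probe sets with a gene symbol. Each gene had 1 probe set, and all 5 passed the filter on low signal, under which 12597 genes were tested. Ccn6 (Wisp3), the remaining gene of the family, stayed between 5.48 and 5.55 on the log2 scale on all 9 arrays, did not pass the filter and was not tested.

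Expression was measured on Affymetrix arrays in whole hearts of male C57BL/6 mice, 3 hearts per group. Every mouse received an adeno-associated virus (AAV) with an MLC promoter at 8 weeks of age, had surgery 4 weeks later and gave its heart after another 4 weeks. In the sham-luciferase group the virus carried luciferase and no constriction was placed. The TAC-luciferase group had the same virus and transaortic constriction (TAC), which loads the heart with pressure, and the TAC-HDAC4-NT group had TAC and a virus for amino acids 1 to 201 of histone deacetylase 4 (HDAC4). No group had sham surgery with HDAC4-NT, and the labels do not say in which heart cells the virus was active.

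CCN proteins are built from modules for insulin-like growth factor binding, von Willebrand type C and thrombospondin repeats and, in all but Ccn5, a cystine-knot carboxyl terminus. They act at the cell surface and in the matrix by binding integrins, LRP receptors, heparan sulfate proteoglycans and growth factors. Ccn1 and Ccn2 respond quickly to stretch and to serum factors through the YAP/TAZ-TEAD, SRF and SMAD transcription factors. In the heart, fibroblasts and muscle cells make Ccn2 under load, and it is widely used as a marker of fibrosis.

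Defining markers of heart muscle were high on every array (mean log2 value of 10 genes 12.92 to 13.09). TAC-luciferase heart 1 stood apart from its group. Over the tested genes its Pearson correlation with the TAC-HDAC4-NT hearts was 0.991 to 0.992, against 0.986 to 0.987 with TAC-luciferase hearts 2 and 3. These correlations are across genes, which are not independent replicates. The values of Ccn1, Ccn2 and Ccn5, and the counts of the gene lists between the TAC groups, are given below with and without it. Of the TAC-luciferase hearts it was the nearest to TAC-HDAC4-NT, so leaving it out favours calls between the TAC groups. Calls gained that way are not separate support. The number of arrays limits the precision.

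Under pressure load with the control virus, 4 of the 5 CCN genes rose, namely Ccn1, Ccn2, Ccn4 and Ccn5 (limma over all genes, Benjamini-Hochberg adjusted p under 0.05). Of all genes tested, 26.1% changed in this comparison and 11.2% were higher. In TAC-HDAC4-NT hearts the same 4 genes were higher than in sham, where 22.8% of all genes changed and 10.5% were higher. Both comparisons use the same 3 sham hearts. With HDAC4-NT against luciferase after TAC, 0 of the 5 genes passed, where 0.254% of all genes did (0.143% higher and 0.111% lower, limma). In that comparison 2 of the 5 genes, Ccn1 and Ccn2, had an unadjusted p under 0.05, as 14.3% of all genes had. The TAC groups did not overlap for the same 2 genes, both lower with HDAC4-NT. Of all genes 20.4% did not overlap there, 8.8% lower and 11.6% higher with HDAC4-NT. The array counts RNA of the whole heart, so fewer cells of a type and less RNA per cell cannot be told apart.

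**Figure D1:**
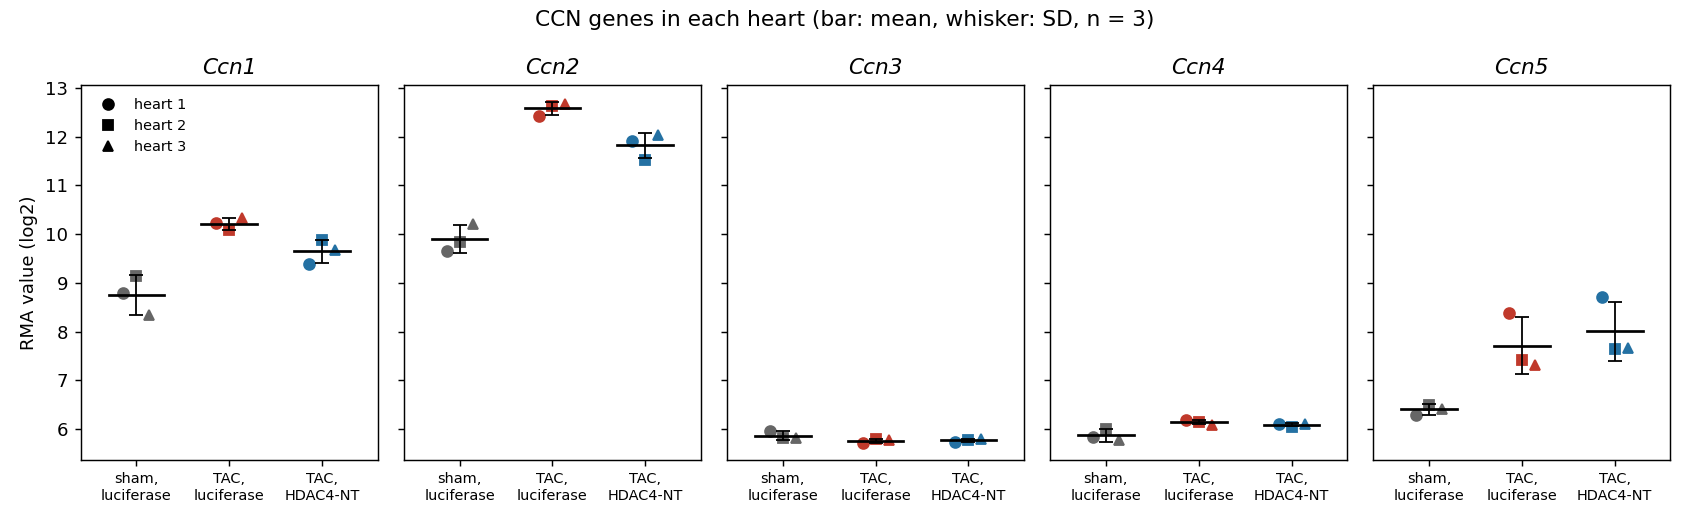
RMA values (log2, vertical axis) of the 5 CCN genes in each of the 9 hearts, with a symbol per heart number, the group mean as a bar and the SD as a whisker (n = 3). Ccn2 lay between 9.65 and 10.21 in sham hearts and above 11.5 in every TAC heart, Ccn5 was highest in heart 1 of both TAC groups, and Ccn3 and Ccn4 lay near the bottom of the scale.

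Ccn2, which encodes connective tissue growth factor, stood at 9.65, 9.84 and 10.21 in the sham hearts, at 12.43, 12.63 and 12.68 in the TAC-luciferase hearts and at 11.90, 11.52 and 12.03 in the TAC-HDAC4-NT hearts. The 3 groups did not overlap, with sham lowest, TAC-HDAC4-NT between and TAC-luciferase highest. Against sham, Ccn2 was 6.41-fold higher in TAC-luciferase (log2 fold change 2.68, SE 0.16, limma adjusted p 1.36e-05), which placed it 8th from the top of all genes tested. In TAC-HDAC4-NT it was 3.78-fold higher than in sham (log2 fold change 1.92, SE 0.16, limma adjusted p 7.51e-05) and 20th from the top.

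Set against TAC-luciferase, Ccn2 stood 1.69-fold lower in TAC-HDAC4-NT (log2 fold change -0.76, 95% interval -1.12 to -0.40). The lowest TAC-luciferase heart lay 0.40 log2 units above the highest TAC-HDAC4-NT heart. The difference did not pass (limma adjusted p 0.076). Without TAC-luciferase heart 1 it was -0.84 and passed (limma adjusted p 0.0305), and that omission raised the calls over all genes from 32 to 697. Leaving out any other single array gave values of -0.87 to -0.61, and none of these passed.

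Ccn1 is an immediate early gene for a pro-angiogenic matrix protein. It stood at 8.78, 9.14 and 8.33 in the sham hearts, at 10.22, 10.09 and 10.33 in TAC-luciferase and at 9.40, 9.88 and 9.67 in TAC-HDAC4-NT. As for Ccn2, the 3 groups did not overlap and their order was the same, while the sham hearts spread over 0.81 log2 units. Ccn1 was 2.76-fold higher in TAC-luciferase than in sham (log2 fold change 1.46, SE 0.19, limma adjusted p 0.000605). It was 1.86-fold higher in TAC-HDAC4-NT than in sham (log2 fold change 0.90, SE 0.19, limma adjusted p 0.00812). With HDAC4-NT against luciferase it stood at -0.56 (95% interval -0.99 to -0.14) and did not pass (limma adjusted p 0.216). TAC-luciferase heart 1 made little difference to Ccn1, at -0.56 without it (limma adjusted p 0.209).

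The promoter of Ccn1 is shown because the gene rose with Ccn2 and is a known target of TEAD factors. A RefSeq promoter table of build GRCm38.p6 matched Ccn1, and not Ccn2, Ccn3, Ccn4 or Ccn5. The 250 bases before its annotated start, at chr3:145649986-145650235 on the minus strand, read as follows from 5′ to 3′, with matches to the TEAD motif GGAATG, the CRE half-site TGACGT and the TATA box TATAAA in capitals, searched on both strands.
Ccn1: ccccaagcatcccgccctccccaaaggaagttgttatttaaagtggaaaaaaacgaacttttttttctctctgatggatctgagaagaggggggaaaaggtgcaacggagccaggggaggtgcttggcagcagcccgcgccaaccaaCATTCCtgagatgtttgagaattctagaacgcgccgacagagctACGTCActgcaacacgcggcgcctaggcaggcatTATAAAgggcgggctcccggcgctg

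The TEAD match lay 103 to 98 bases before the start on the opposite strand, and 12.6% of the 32851 promoters in the table held such a match in the same window. The CRE half-site match lay 59 to 54 bases before the start, also on the opposite strand, with a share of 6.47%. The TATA box lay 25 to 20 bases before the start, with a share of 12.4%. No matches were found in this window for the AP-1 site TGANTCA (6.75% of promoters), the SMAD-binding element CAGAC (42.2%) or the CArG box bound by SRF (1.47%). No motif overlapped another. A match is a description of the letters and not of a bound factor.

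Ccn5 encodes the member without the cystine knot, described as an antagonist of the fibrotic actions of Ccn2. It stood at 6.29, 6.51 and 6.41 in the sham hearts, at 8.38, 7.43 and 7.32 in TAC-luciferase and at 8.70, 7.64 and 7.67 in TAC-HDAC4-NT. Every TAC heart lay above every sham heart, and the TAC groups overlapped. In each TAC group heart 1 was clearly above the other 2 hearts. The first number of the sample code is 8 for heart 1 of TAC-luciferase and 3 for heart 1 of TAC-HDAC4-NT, against 9 and 4 for hearts 2 and 3. It is 12 for all sham hearts, so no number is shared between groups. What this number stands for is not given in the labels. Within each TAC group its part cannot be told apart from that of heart 1, the only heart with its number. Between groups it cannot be told apart from that of the group.

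Ccn5 was 2.47-fold higher in TAC-luciferase than in sham (log2 fold change 1.30, SE 0.32, limma adjusted p 0.0167). This call was lost without sham heart 1 (limma adjusted p 0.0574), and the value was 0.97 without TAC-luciferase heart 1 and 1.97 with that heart alone. In TAC-HDAC4-NT it was 3.03-fold higher than in sham (log2 fold change 1.60, SE 0.32, limma adjusted p 0.00687), 33rd from the top of all genes tested. The difference between the TAC groups was 0.30 (95% interval -0.43 to 1.03, limma adjusted p 0.771), at 0.63 without TAC-luciferase heart 1 and at -0.05 without TAC-HDAC4-NT heart 1. Of the 9 arrays left out in turn, TAC-HDAC4-NT heart 1 was the one that turned the direction.

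Ccn4, a target of Wnt signalling that is active in fibroblasts, had low signal. Its values were 5.83, 6.01 and 5.77 in the sham hearts, 6.19, 6.15 and 6.09 in TAC-luciferase and 6.11, 6.05 and 6.10 in TAC-HDAC4-NT. All TAC hearts lay above all sham hearts, by 0.04 log2 units at the narrowest. The log2 fold change against sham was 0.28 in TAC-luciferase (SE 0.06, limma adjusted p 0.0131) and 0.22 in TAC-HDAC4-NT (SE 0.06, limma adjusted p 0.0406). The second call was lost without any 1 of 7 arrays, that is all but sham heart 2 and TAC-luciferase heart 1, with limma adjusted p-values up to 0.125. With HDAC4-NT against luciferase Ccn4 stood at -0.06 (95% interval -0.21 to 0.09, limma adjusted p 0.77). RMA compresses low values, so these differences may understate a change.

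Ccn3, which counteracts Ccn2 in several cell types, also had low signal. It stood at 5.97, 5.82 and 5.82 in the sham hearts, at 5.72, 5.79 and 5.78 in TAC-luciferase and at 5.73, 5.78 and 5.80 in TAC-HDAC4-NT. Both TAC groups lay below sham without overlap, by 0.03 and 0.01 log2 units at the narrowest. Neither difference passed, at -0.11 for TAC-luciferase against sham (95% interval -0.23 to 0.02, limma adjusted p 0.199) and -0.10 for TAC-HDAC4-NT against sham (95% interval -0.22 to 0.03, limma adjusted p 0.259). The Ccn3 difference between the TAC groups was 0.01 (95% interval -0.11 to 0.13, limma adjusted p 0.978). Counted over the family, all 5 genes had TAC-luciferase and sham groups that did not overlap, 4 above sham and Ccn3 below. Of all genes 37.4% did so, 15.9% above and 21.6% below. All 5 also separated TAC-HDAC4-NT from sham in the same directions, as 39.7% of all genes did, 18.3% above and 21.5% below.

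**Figure D2:**
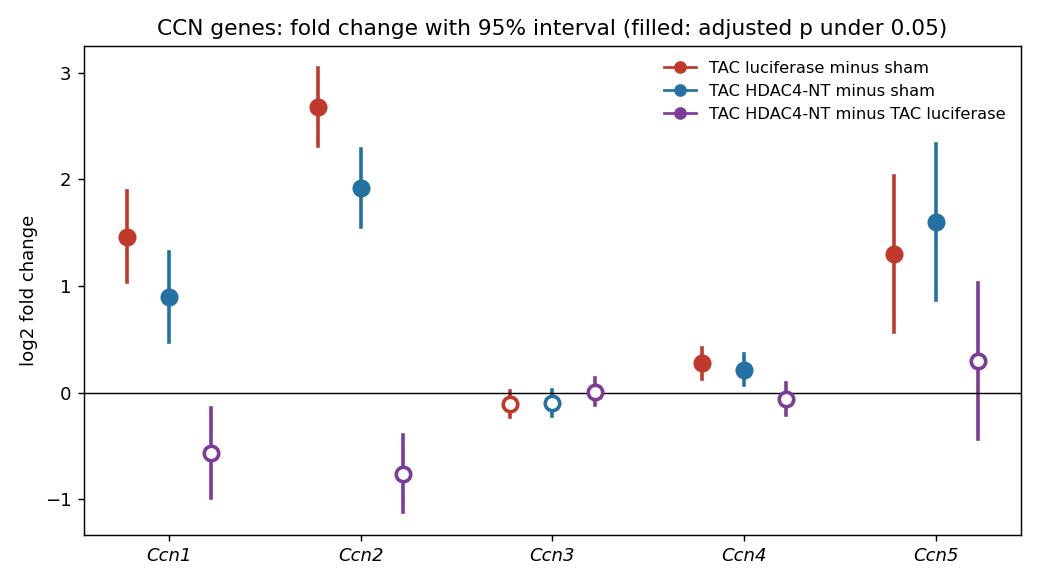
Log2 fold changes (vertical axis) of the 5 CCN genes in the 3 comparisons, with the 95% interval of the limma fit as a line and filled circles for an adjusted p under 0.05. Ccn2 reached 2.68 and 1.92 against sham, and the 5 open purple circles show that no CCN gene passed between the TAC groups.

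The genes whose pattern over the 9 hearts was nearest to each CCN gene were found by the root mean square difference of the log2 values, each gene centred on its own mean. They were picked for likeness over all 9 hearts, so a shared order of hearts or groups follows from the choice and is not further support. For Ccn2 these were Myh7 (0.29 log2 units), the slow myosin heavy chain used by the fetal ventricle, Timp1 (0.31), an inhibitor of matrix metalloproteinases, and Lox (0.35), which crosslinks collagen. Ccn2 itself varied by 1.14 around its mean on this measure. Lox stood at 7.27, 7.64 and 7.44 in TAC-luciferase and at 6.90, 6.61 and 7.22 in TAC-HDAC4-NT, without overlap, as Ccn2 did. Myh7 overlapped between the TAC groups, at 11.43, 11.70 and 11.40 against 11.53, 11.01 and 11.71.

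For Ccn1 the nearest genes were Eln (0.22 log2 units), which encodes elastin, Tlr4 (0.24), a receptor for bacterial lipopolysaccharide, and Crispld2 (0.26), against 0.64 for Ccn1 around its own mean. Eln stood at 6.75, 7.12 and 6.60 in the sham hearts, which were among the hearts used to pick it, with heart 2 highest and heart 3 lowest as for Ccn1. For Ccn5 they were Sfrp2 (0.30), a secreted Wnt modulator, Cd72 (0.30), a B-cell surface receptor, and Fxyd6 (0.31), a regulator of the sodium pump, against 0.80 for Ccn5. Sfrp2 stood at 8.44, 7.87 and 7.87 in TAC-luciferase and at 8.22, 7.71 and 7.96 in TAC-HDAC4-NT, so heart 1 was highest in both TAC groups, as for Ccn5. On the same measure Ccn1 lay 0.66 from Ccn2, 0.64 from Ccn5 and 0.53 from Ccn4, and Ccn2 lay 0.74 from Ccn5, so each of these pairs was farther apart than a CCN gene and the 3 genes nearest to it. Ccn3 and Ccn4 varied by 0.07 and 0.13 around their means, and the genes nearest to them were Mrpl32, Fhl2 and Enoph1 for Ccn3 and Fam219a, Snx10 and Lman1l for Ccn4.

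**Figure D3:**
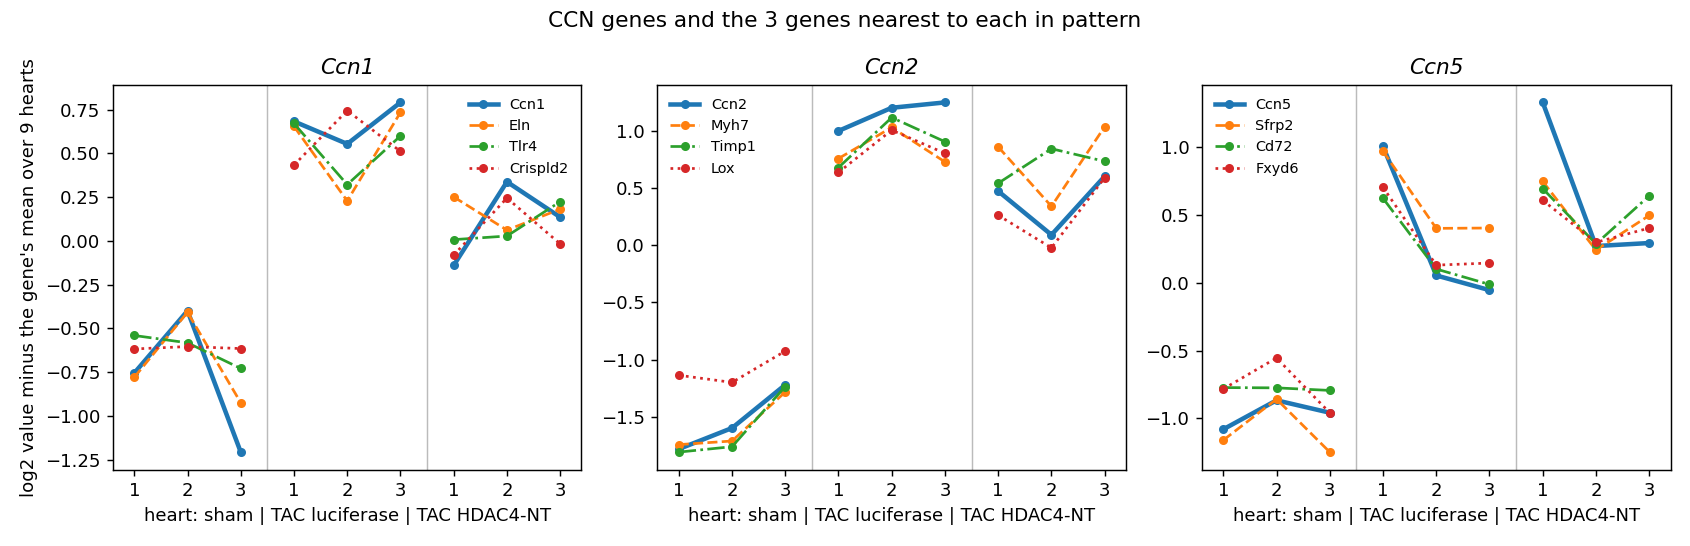
Log2 values of Ccn1, Ccn2 and Ccn5 (thick lines) and of the 3 genes nearest to each in pattern (thin lines), each gene centred on its mean over 9 hearts, for hearts 1 to 3 of each group along the horizontal axis. Lines join hearts of a group only to ease reading, since replicates have no order, and heart 1 is the highest point of Ccn5 and Sfrp2 in both TAC groups.

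Genes that regulate or act with the CCN proteins were taken in 10 lists. The lists overlap, for example in Tgfb2, Tgfb1 and Amotl2, and a gene counts in each. Over all genes tested the median log2 fold change was -0.01 in TAC-luciferase against sham, 0.00 between the TAC groups and -0.01 in TAC-HDAC4-NT against sham. In the first comparison 11.2% of all genes were higher and 14.9% lower, and in the last 10.5% were higher and 12.3% lower. Which direction held more genes depended on the scaling. Of the called genes, 42.8% and 46.2% were higher in these 2 comparisons, and 51.7% and 52% after cyclic loess scaling.

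The Hippo pathway holds YAP and TAZ, the coactivators that drive Ccn1 and Ccn2 through TEAD factors, out of the nucleus. Of its 21 tested genes, 5 rose and 1 fell in TAC-luciferase against sham (median 0.06), a changed share near the 26.1% of all genes. Mob1b, a cofactor of the LATS kinases, rose by 0.76 log2 units, Amot, a YAP-binding scaffold, by 0.64 and Wwtr1, which encodes TAZ, by 0.42, while Amotl2 fell by 0.45. In TAC-HDAC4-NT against sham 3 rose and 1 fell, a changed share near the 22.8% of all genes, with Mob1b at 0.92, Amot at 0.69 and Wwtr1 at 0.42. The gene that fell was Amotl2, at -0.25 (limma adjusted p 0.0469), and this call was lost without any 1 of 7 arrays, all but TAC-luciferase hearts 1 and 2 (up to 0.143). Of 18 other targets of YAP and TAZ, 6 rose and 5 fell under load with luciferase (median 0.05), so the list moved both ways. Ankrd1, a stretch-responsive muscle gene, rose by 0.86 and Axl, a receptor tyrosine kinase, by 0.72, while Dock5 fell by 0.30. With HDAC4-NT 5 rose and 2 fell against sham, Ankrd1 by 0.91 and Axl by 0.83 upwards. The 2 that fell were Amotl2, with the limit just given, and Dock5, at -0.19 (limma adjusted p 0.0141), whose call was lost without TAC-HDAC4-NT heart 1 (0.0652). No gene of these 2 lists passed between the TAC groups.

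SRF and its MRTF cofactors couple actin dynamics to transcription. Of 15 genes of this list, 5 rose and 1 fell in TAC-luciferase against sham (median 0.16). The focal adhesion gene Zyx rose by 1.14 log2 units and Actn1, an actin crosslinker, by 1.13, while Mrtfb fell by 0.46. In TAC-HDAC4-NT 5 rose and 0 fell against sham, with Actn1 at 0.98 and Zyx at 0.60. Mrtfb was the 1 gene of the list that passed between the TAC groups, higher by 0.43 with HDAC4-NT (limma adjusted p 0.0458). That call was lost without any 1 of 7 arrays, all but sham heart 1 and TAC-luciferase heart 1, with limma adjusted p-values up to 0.205.

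TGF-beta is the best known inducer of Ccn2, and Ccn2 in turn strengthens its signal. Of 18 genes for TGF-beta ligands, receptors, SMADs and common targets, 9 rose and 2 fell in TAC-luciferase against sham (median 0.34). The ligand Tgfb2 rose by 1.92 log2 units, Tgfb3 by 1.25 and the receptor Tgfbr1 by 1.11, while the co-receptor Tgfbr3 fell by 0.75. In TAC-HDAC4-NT 7 rose and 2 fell against sham (median 0.18), Tgfb2 by 2.26 and Tgfb3 by 1.35 upwards. None passed between the TAC groups, and the gene with the smallest p, Tgfbr1, stood at -0.46 (limma adjusted p 0.0637). It passed under 5 of the 22 other settings, among them without TAC-luciferase heart 1 (limma adjusted p 0.0326). Of 12 genes for other inducers of Ccn1 and Ccn2 and their receptors, 5 rose and 1 fell in TAC-luciferase against sham (median 0.57). Ace, which makes angiotensin II, rose by 1.66 and the thrombin receptor F2r by 1.17, while the angiotensin receptor Agtr1a fell by 0.53. In TAC-HDAC4-NT 4 rose and 2 fell against sham (median 0.05), Ace by 1.53 and F2r by 1.06 upwards. The 2 that fell were Agtr1a, at -0.39, and the growth factor Vegfa, at -0.29 (limma adjusted p 0.0111 and 0.0415). Between the TAC groups none passed.

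At the cell surface, 8 of 15 CCN receptor and co-receptor genes rose in TAC-luciferase against sham and 0 fell (median 0.29). Itga5, an integrin subunit that binds fibronectin, rose by 1.62 log2 units, the endocytic receptor Lrp1 by 1.32 and the heparan sulfate proteoglycan Sdc4 by 0.84. In TAC-HDAC4-NT 6 rose and 0 fell against sham (median 0.12), Lrp1 by 1.40, Fgfr1 by 0.79 and Itgb5 by 0.78. None passed between the TAC groups, and Itga5 and Sdc4 stood at -0.84 and -0.87 (limma adjusted p 0.0611 and 0.0646). Each passed under 7 of the 22 other settings, Itga5 without TAC-luciferase heart 1 (limma adjusted p 0.00914) and Sdc4 without TAC-luciferase heart 1 or 3 (0.0264 and 0.0358). Of 15 genes for matrix and growth factor partners of the CCN proteins, 7 rose and 1 fell under load with luciferase (median 0.34). Fn1, which encodes fibronectin, rose by 1.65, the proteoglycan Bgn by 1.32 and Tgfb1 by 0.73. With HDAC4-NT 8 rose and 2 fell against sham (median 0.38), Fn1 by 1.81 and Igf1, insulin-like growth factor 1, by 0.99 upwards, and between the TAC groups none passed.

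Ccn4 and Ccn5 were first described in Wnt-transformed cells. Of 10 other Wnt target genes, 2 rose and 1 fell in TAC-luciferase against sham (median -0.01), a share near that of all genes. Ccnd1, a cyclin, rose by 0.54 log2 units and Nkd2, a Wnt antagonist, by 0.52, while Lgr6, a receptor for R-spondins, fell by 0.69. In TAC-HDAC4-NT 3 rose and 1 fell, with Nkd2 at 0.85, and between the TAC groups none passed.

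Among 18 matricellular genes outside the family, 11 rose and 0 fell in TAC-luciferase against sham (median 0.52). The same counts held in TAC-HDAC4-NT against sham (median 0.51), though the called genes were not all the same. Thbs1 passed with luciferase (log2 fold change 3.27, SE 0.77, limma adjusted p 0.0131) and did not with HDAC4-NT (1.61, SE 0.77, limma adjusted p 0.18). Thbs4 and Postn, the genes of the list with the largest rise, stood at 3.66 and 3.39 log2 units with luciferase and at 3.82 and 3.72 with HDAC4-NT. None of the 18 passed between the TAC groups. Among them Spon1 and Tnxb had the smallest p-values, at -0.24 and 0.31 (limma adjusted p 0.195 and 0.204).

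Leaving out TAC-luciferase heart 1, the heart of its group nearest to TAC-HDAC4-NT, favours calls between the TAC groups. Without it, 5.53% of all genes passed there, 2.38% higher and 3.15% lower with HDAC4-NT, and 9 of the lists above hold called genes. In the Hippo list 1 gene was then higher and 1 lower, among the YAP and TAZ targets 3 and 2, in the SRF list 1 and 2 and in the TGF-beta list 2 and 3. Among the CCN inducers 4 were lower, among the receptors 3, among the partners 2 and among the other matricellular genes 1, with 0 higher in each, and of the Wnt targets 1 was higher.

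**Figure D4:**
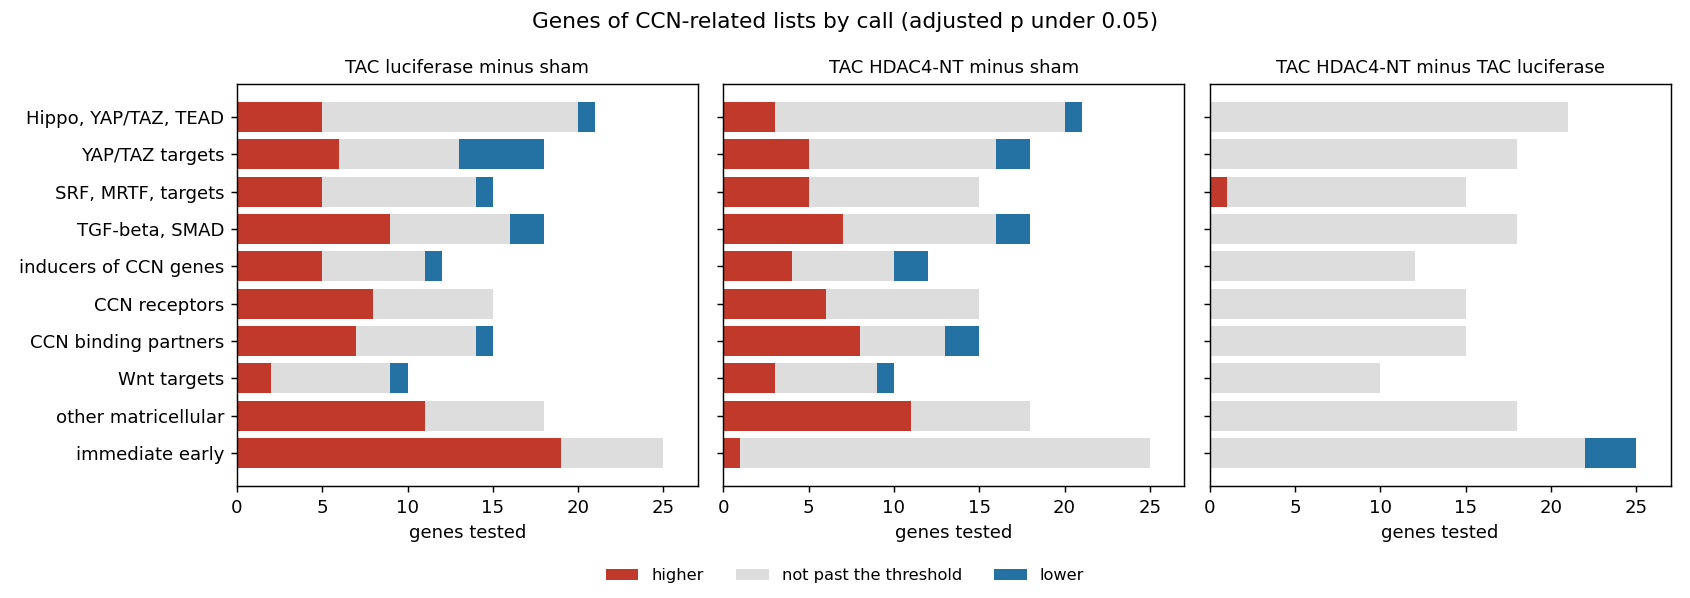
Numbers of tested genes (horizontal axis) in 10 lists around the CCN proteins that were higher (red), lower (blue) or not past the threshold (grey) in each comparison. Against sham, 9 of 18 TGF-beta and 8 of 15 CCN receptor genes were higher with luciferase, and with all 9 arrays the calls between the TAC groups lie in the SRF and immediate early lists.

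Ccn1 belongs to the immediate early genes, of which 25 others were tested. In TAC-luciferase 19 of them rose against sham and 0 fell (median 0.73), where 11.2% of all genes were higher. In TAC-HDAC4-NT 1 rose, Ier3, by 0.65 log2 units (median -0.01), where 10.5% of all genes were higher. With HDAC4-NT against luciferase 3 fell, beside 0.111% of all genes. All 25 had a log2 fold change below 0 (median -0.76, against 0.00 over all genes). Without TAC-luciferase heart 1, an omission that favours such calls, 20 of the 25 fell (median -0.98), beside 3.15% of all genes. The 3 were Atf3, a stress-induced transcription factor, at -2.52, Btg2, an antiproliferative gene, at -1.24, and Klf4 at -0.53. Atf3 lost its call without TAC-HDAC4-NT heart 1 or 2 (limma adjusted p up to 0.0622), and Klf4 lost it without any 1 of the same 7 arrays as Mrtfb (up to 0.205). Against sham, Atf3 and Btg2 stood at -0.14 and 0.11 with HDAC4-NT (limma adjusted p 0.749 and 0.508), whereas Ccn1 and Ccn2 were higher than in sham there. The mean of the 26 listed genes was 6.69 to 6.79 in sham hearts and 6.66 to 6.84 with HDAC4-NT, and it was 7.20, 7.94 and 7.88 in the TAC-luciferase hearts. TAC-luciferase heart 1 was thus the lowest of its group for these genes and for Ccn2, and lay between hearts 2 and 3 for Ccn1. The part of this list in the values of Ccn1 and Ccn2 was not tested.

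Some markers of fibroblasts and macrophages moved with load too, and their lists are 3 of the 13 marker lists examined. Of the other lists, 0 of 10 cardiomyocyte markers rose and 2 fell in TAC-luciferase against sham. Of 10 endothelial markers 2 rose and 2 fell there, and of 9 smooth muscle and pericyte markers 1 rose and 1 fell. Of all genes 11.2% were higher and 14.9% lower in that comparison. In TAC-HDAC4-NT against sham 10.5% of all genes were higher and 12.3% lower. There 0 cardiomyocyte markers rose and 1 fell, and 2 endothelial markers rose and 0 fell. Of the 9 smooth muscle and pericyte markers 3 rose and 2 fell. Of 8 tested markers of activated fibroblasts, 7 rose in TAC-luciferase against sham and 7 in TAC-HDAC4-NT, among them Meox1, by 1.86 and 2.04 log2 units. The mean of the 9 listed genes was 6.93 to 6.95 in sham hearts, 8.30 to 8.39 in TAC-luciferase and 8.35 to 8.56 in TAC-HDAC4-NT. Of 10 general fibroblast markers, 5 rose and 0 fell with luciferase against sham, and 5 rose and 1, Dpep1, fell with HDAC4-NT. In both comparisons the 5 were Col1a1, Col1a2, Col3a1, Lum and Dcn, which encode matrix proteins. Pdgfra, Tcf21, Gsn and Dpt were called in neither. Pdgfra and Tcf21 stood at 0.13 and 0.03 with luciferase and at 0.24 and 0.25 with HDAC4-NT. The ranges of the mean of the 10 genes were 8.40 to 8.50, 8.90 to 9.12 and 9.02 to 9.17. Of 10 macrophage markers, 5 and 6 rose, with ranges of 7.17 to 7.35, 7.65 to 7.79 and 7.61 to 7.67. Among the 5, Cd14 lost its call without any 1 of 8 arrays, all but TAC-luciferase heart 1 (limma adjusted p up to 0.136). None of the 3 fibroblast and macrophage lists had a gene past the threshold between the TAC groups. Without TAC-luciferase heart 1 there was 1, a macrophage marker that was lower. That omission, under which 5.53% of all genes passed, gave 3 endothelial markers higher and 1 lower. It also gave 2 smooth muscle and pericyte markers higher and 0 lower. With all 9 arrays, the genes of the fibroblast and macrophage lists with the smallest p between the TAC groups had values of both signs. Postn and Meox1 stood at 0.33 and 0.18 among the activated fibroblast markers, Dpep1 and Col1a1 at -0.32 and 0.18 among the fibroblast markers and Cd14 and Csf1r at -0.71 and 0.18 among the macrophage markers (limma adjusted p 0.242 to 0.435). The part of these cells in the rise of the CCN genes was not tested.

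A mean difference between clock activator and clock output genes ran from -1.70 to -1.05 in the TAC-HDAC4-NT hearts, from -0.74 to 0.98 in TAC-luciferase and from -0.81 to -0.12 in sham. The range of the TAC-luciferase hearts lay above that of the TAC-HDAC4-NT hearts. With this index as a covariate Ccn2 stood at -0.51 between the TAC groups (limma adjusted p 0.821), and no gene at all passed there. The index and HDAC4-NT cannot be told apart between these groups. The range of the TAC-HDAC4-NT hearts also lay below that of sham, so the index cannot be told apart from the group in that comparison either. Averaged over 4 atrial genes, the level ran from 5.98 to 8.07 with luciferase after TAC and from 5.94 to 6.94 with HDAC4-NT, and with this average as a covariate Ccn2 stood at -0.76 (limma adjusted p 0.113).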

How the data were processed

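Biotinylated cRNA from whole hearts was hybridised to 9 arrays, per the labels' protocols. RMA gave the log2 values that the authors deposited, per the submitters' processing notes. Which version, probe set definitions and genome build were used is not stated in those notes. Sorted by size, the values of every array were the same, so between-array scale had been removed. Of 21225 probe sets, 20239 had 1 gene symbol, all matched by gene ID to RefSeq (GRCm38.p6), and 986 are unnamed here. Genes were tested when 3 or more of the 9 arrays exceeded log2 5.66, the 40th percentile of the table.

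One linear model over all 9 arrays was fitted by limma (version 3.58.1, lmFit and eBayes) under R 4.3.3, with a gene called at a Benjamini-Hochberg adjusted p under 0.05 and 95% intervals from the moderated fit. The scripts were tested on simulated data. Labels give 3 animals per group. The members and lists were chosen with earlier results of these data known. From each list, up to 3 called genes with the largest rise and 3 with the largest fall were named, or up to 2 with the smallest p where none passed. In TAC-HDAC4-NT against sham, values of list genes are named by the same rule or beside their other comparison. Further fibroblast markers are named beyond this rule, to show which of them moved. Nearest genes were sought among named genes without predicted gene models. Hearts were not treated as paired by replicate number. Same-numbered hearts had correlations of deviations from the group means of -0.12 to 0.20, highest for heart 1 of both TAC groups. Figures were drawn with matplotlib 3.10.9.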

Additional observations from a re-analysis of the deposited data

How the results depend on the processing

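The results were recomputed under 22 other settings. Ccn1 and Ccn2 kept their direction and their call against sham in both TAC groups under all 22, Ccn2 at 2.53 to 2.84 log2 units with luciferase. The 4 CCN genes called in TAC-luciferase against sham became 2 at an adjusted p under 0.01, and 3 to 4 with each array left out in turn, as in TAC-HDAC4-NT against sham. Between the TAC groups the count rose from 0 to 1, Ccn2 in each case, with array weights, with the replicate block, with the sample code's first number treated as a random block (estimated correlation -0.113), at an adjusted p under 0.10 and without TAC-luciferase heart 1 (0 to 1 over the 9 arrays left out). A negative block correlation models hearts with the same first number as less alike than others, so the call gained with that random block is not separate support. Ccn2 passed narrowly with the replicate number as a block (adjusted p 0.0497). Hearts correlated best with their own number in 6 of 18 cases. Each case was a choice among 3 hearts, so 6 is also the count met on average without pairing. The count thus shows no sign of pairing, though with so few hearts it cannot exclude it. The block took the calls over all genes between the TAC groups from 32 to 106. Other settings moved that count too, to 0 with only the 6 arrays compared or with the clock index, 7 with atrial genes, 3 at 0.01, 297 at 0.10, 10 without the filter, 103 at the 60th percentile, 75 with a trended robust prior, 827 with array weights, 177 with the random block, 10 with TAC-luciferase hearts 2 and 3 both left out, and 1 to 697 with each array left out. Against sham, counts fell from 3283 to 1748 at 0.01 and to 1926 without both those hearts with luciferase, and from 2872 to 1579 at 0.01 with HDAC4-NT.

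Between the TAC groups some values turned their sign, all uncalled in either setting, and the cause was not tested. Ccn3 went to -0.012 with array weights and ran from -0.012 to 0.029 with each array left out. Ccn5 went to -0.70 with the clock index and to -0.37 with TAC-luciferase hearts 2 and 3 both left out, and ran from -0.053 to 0.63 with each array left out. Col1a1 went to -0.013 with those 2 hearts left out, and Csf1r to -0.0070 with the clock index. Ccn5 in TAC-luciferase against sham lost its call with array weights (adjusted p 0.0599). Ccn4 lost its call in TAC-HDAC4-NT against sham under 14 of 21 settings, and in TAC-luciferase against sham at 0.01 and with those 2 hearts left out (adjusted p 0.0664). At the 60th percentile Ccn3 and Ccn4 were not tested. Signal over background limits both, as the deposited table has no detection p.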
